A study of Homo sapiens with 30 samples.

Results

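The genes described here encode 6 laminin chains (LAMA1, LAMA3, LAMA5, LAMB1, LAMB3 and LAMC1), 2 integrin beta subunits (ITGB4 and ITGB5) and fibronectin (FN1). They were picked by symbol from tables of 24462 genes, and each of the 9 was present. QuantSeq, which sequences a tag near the 3′ end of polyadenylated transcripts, measured them in 30 libraries of the colorectal cancer cell lines Caco2, HCT116 and SW480. The hairpin shSETDB1 targets SETDB1, a histone H3 lysine 9 methyltransferase, and cells were sorted on a keratin (KRT20 in Caco2), a differentiation marker of gut epithelium. There were 10 groups of 3 libraries. In Caco2 these were shSETDB1 cells sorted as KRT20-positive, shSETDB1 cells sorted as KRT20-negative, shScramble cells in differentiation medium and shScramble cells in vehicle. HCT116 and SW480 each gave shSETDB1 cells sorted as KRT-positive, shSETDB1 cells sorted as KRT-negative, and unsorted cells. The protocol gives retroviral transduction and puromycin selection for the cells, and the differentiation medium held 10 uM troglitazone, an agonist of PPARG, and 25 nM 1α,25-Dihydroxyvitamin D3, the ligand of VDR, supplied from 3 days after transduction. The labels do not give the medium of the shSETDB1 cells, the hairpin or medium of the unsorted cells, the keratin of the HCT116 and SW480 sorts, or whether replicates were separate cultures. The p-values therefore measure the spread between these samples.

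Laminins are heterotrimers of an alpha, a beta and a gamma chain that polymerise into the basement membrane under epithelia. Integrins are alpha-beta heterodimers that bind this matrix: the α6β4 integrin holds epithelial cells to laminin at hemidesmosomes, and β5 pairs with αV as a vitronectin receptor. Fibronectin is a secreted glycoprotein that cells assemble into fibrils through integrins such as α5β1, and in the gut wall it is made mainly by stromal cells, although carcinoma cell lines also produce it.

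In GENCODE 29 (GRCh38) the genes lie at chr18:6941744-7117814 (LAMA1), chr18:23689443-23956222 (LAMA3), chr20:62307955-62367312 (LAMA5), chr7:107923799-108003255 (LAMB1), chr1:209614870-209652466 (LAMB3), chr1:183023460-183145592 (LAMC1), chr17:75721328-75757818 (ITGB4), chr3:124761948-124901418 (ITGB5) and chr2:215360440-215436172 (FN1). Promoter sequence from RefSeq (GRCh38.p14) was at hand for 7 of the 9 genes. It is shown for 3 of them as examples: LAMA5 and LAMC1 are laminin chains that were both higher in differentiation medium, and FN1 is a gene that differed between KRT20-positive and KRT20-negative cells. Each sequence reads 5′ to 3′ on the strand of the gene and ends just before the transcription start, except that of FN1, which covers positions -250 to -108. The regions are chr20:62367313-62367562 (minus strand) for LAMA5, chr1:183023170-183023419 (plus strand) for LAMC1 and chr2:215436176-215436318 (minus strand) for FN1. Capitals mark the GC box GGGCGG, the CCAAT box and the cyclic AMP response element TGACGTCA, each on either strand.
LAMA5: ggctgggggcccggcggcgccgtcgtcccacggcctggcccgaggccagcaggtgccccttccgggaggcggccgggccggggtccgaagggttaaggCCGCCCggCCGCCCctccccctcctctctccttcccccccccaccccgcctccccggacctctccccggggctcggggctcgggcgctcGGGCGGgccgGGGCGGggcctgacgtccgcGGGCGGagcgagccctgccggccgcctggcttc
LAMC1: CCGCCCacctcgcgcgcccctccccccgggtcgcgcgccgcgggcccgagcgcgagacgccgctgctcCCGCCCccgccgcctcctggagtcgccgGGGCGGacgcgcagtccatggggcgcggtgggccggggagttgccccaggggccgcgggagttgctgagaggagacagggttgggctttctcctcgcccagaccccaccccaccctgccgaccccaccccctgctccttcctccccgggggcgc
FN1: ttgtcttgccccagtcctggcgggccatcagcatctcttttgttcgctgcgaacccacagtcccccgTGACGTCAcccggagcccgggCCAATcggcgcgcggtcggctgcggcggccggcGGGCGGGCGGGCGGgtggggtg
LAMA5 held 5 GC boxes and LAMC1 held 3. The printed FN1 stretch held 3 GC boxes that overlap one another, at -129, -125 and -121, a CCAAT box at -162 and a TGACGTCA at -183. Among 35116 RefSeq windows of 250 bases before a gene start, 42.64% held a GC box, 32.01% a CCAAT box and 1.65% a TGACGTCA. The TATA box TATAAA (10.72% of windows), the nuclear receptor half-site AGGTCA (12.08%) and the AP-1 motif TGANTCA (6.57%) were searched as well, and none of these letters occurs in the windows of the 3 genes. A match is a description of the letters, not evidence of binding.

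Levels are in CPM (counts scaled to library size with TMM factors), given per library or as mean ± SD of 3 libraries; levels of different genes are not compared, because 3′ tag counts have no per-length scale. SETDB1 itself, whose 3′ end overlaps CERS2 on the opposite strand, was at 20.7 to 27.7 CPM in the 6 shSETDB1 libraries of Caco2, against 29.8 to 39.8 CPM in the 6 shScramble libraries. In HCT116 the KRT-positive libraries held 1.99 to 29.2 CPM, the KRT-negative ones 0 to 5.35 CPM and the unsorted ones 15.7 to 67.4 CPM. In SW480 the sorted ones held 0 to 37.2 CPM and the unsorted ones 14.9 to 36.1 CPM. The library labelled SW480 shSETDB1 KRT-negative replicate 1 had more SETDB1 than any unsorted library. Against unsorted cells SETDB1 was called lower in HCT116 KRT-negative cells (edgeR adjusted p = 0.0424). It was not called in HCT116 KRT-positive, SW480 KRT-positive or SW480 KRT-negative cells (edgeR adjusted p = 0.407, 0.523 and 0.938). KRT20 was at 27.5 to 40.0 CPM in Caco2 KRT20-positive and 1.09 to 1.87 CPM in KRT20-negative libraries, and at 43.9 to 73.1 CPM in SW480 KRT-positive and 0 to 0.667 CPM in SW480 KRT-negative libraries. In HCT116 KRT20 exceeded 1 CPM only in KRT-positive replicate 3 (5.44 CPM). The epithelial marker EPCAM was present in all libraries, at 562 to 733 CPM in Caco2, 171 to 593 CPM in HCT116 and 208 to 339 CPM in SW480, whereas the intestinal genes CDX1 and VIL1 were at 0 in HCT116 and CDX1 was at 0 in SW480. Libraries of the 3 lines held 5349737 to 10221854 counts.

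**Figure D1:**
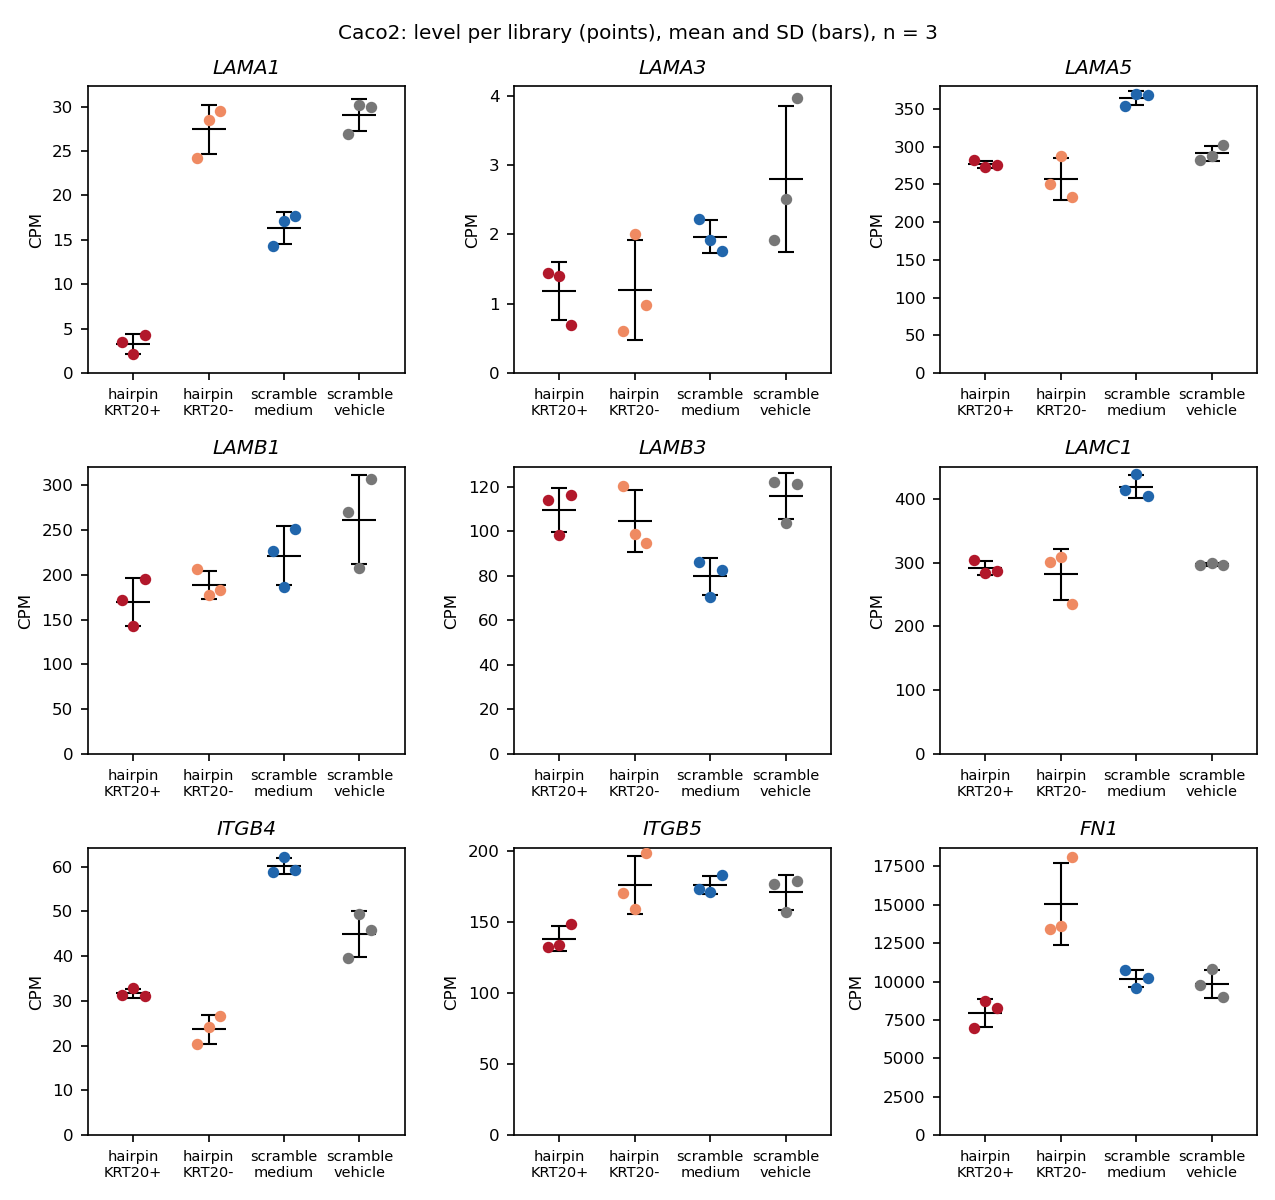
Level (CPM) of each of the 9 genes in the 12 Caco2 libraries; points are libraries, and bars show mean and SD of 3 libraries for shSETDB1 KRT20-positive, shSETDB1 KRT20-negative, shScramble differentiation medium and shScramble vehicle cells, left to right. LAMA1 in KRT20-positive cells (2.10 to 4.31 CPM) and FN1 in KRT20-negative cells (13402 to 18145 CPM) stand clear of all other groups.

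In Caco2 the laminin alpha chains did not move as a block. LAMA1, the α1 chain of embryonic and some adult epithelial basement membranes, fell in KRT20-positive cells and, less far, in differentiation medium, while LAMA5, the major α chain under adult epithelia, rose in differentiation medium. LAMA1 was at 3.45, 2.10 and 4.31 CPM in the KRT20-positive libraries, at 24.3, 28.5 and 29.5 CPM in the KRT20-negative libraries, at 14.3, 17.1 and 17.7 CPM in differentiation medium and at 27.0, 30.2 and 29.98 CPM in vehicle. The KRT20-positive libraries lay below all 9 others, those in differentiation medium lay between, and the KRT20-negative and vehicle ranges overlapped. LAMA1 was 8.84-fold lower in KRT20-positive than in vehicle cells (log2 fold change -3.16 ± 0.19 SE, edgeR adjusted p = 4.44e-12) and 8.35-fold lower than in KRT20-negative cells (-3.03 ± 0.19, edgeR adjusted p = 3.38e-10). In differentiation medium it fell to 0.564 of its vehicle level (-0.84 ± 0.16, edgeR adjusted p = 0.000361), and KRT20-negative cells were not called against vehicle (-0.13, edgeR adjusted p = 0.536). In bulk samples fewer cells of a type and less RNA per cell cannot be told apart.

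LAMA5 was at 282, 273 and 275 CPM in the KRT20-positive libraries, at 249.9, 287 and 233 CPM in the KRT20-negative libraries, at 354, 370.2 and 368 CPM in differentiation medium and at 283, 288 and 303 CPM in vehicle. The 3 libraries in differentiation medium lay above all others. LAMA5 was 1.25-fold higher there than in vehicle (log2 fold change 0.31 ± 0.08 SE, edgeR adjusted p = 0.005). In KRT20-negative cells it was called 0.883-fold of vehicle (-0.23 ± 0.08, edgeR adjusted p = 0.0243), although the ranges overlap. That call was lost without KRT20-negative replicates 1 or 3 or vehicle replicate 3 (edgeR adjusted p = 0.0622, 0.0719 and 0.0968), and with only these 2 groups fitted (edgeR adjusted p = 0.0671). LAMA3, the α3 chain of an epithelial laminin that contains LAMB3, rested on few reads: 5 to 10 counts in KRT20-positive, 5 to 16 in KRT20-negative, 12 to 18 in differentiation medium and 15 to 25 in vehicle libraries. Its fitted value was -1.25 in both KRT20-positive and KRT20-negative cells against vehicle (edgeR adjusted p = 0.0364 and 0.0317). The call in KRT20-positive cells was lost without any of KRT20-positive replicates 1, 2 and 3 or vehicle replicates 2 and 3 (edgeR adjusted p = 0.0553, 0.0594, 0.153, 0.0577 and 0.19). In KRT20-negative cells it was lost without any of KRT20-negative replicates 1 and 3 or vehicle replicates 2 and 3 (edgeR adjusted p = 0.132, 0.0791, 0.0528 and 0.18). It was also lost there with only the 2 compared groups fitted (edgeR adjusted p = 0.0517).

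Of the β and γ chains, LAMC1 rose in differentiation medium together with LAMA5, LAMB1 fell in both shSETDB1 fractions, and LAMB3 fell in differentiation medium. LAMC1, the γ1 chain of most basement membrane laminins, was at 304, 283 and 287 CPM in KRT20-positive libraries, at 301, 308 and 236 CPM in KRT20-negative libraries, at 413, 439.8 and 405 CPM in differentiation medium and at 296, 299 and 296 CPM in vehicle. As for LAMA5, differentiation medium stood above every other library, and the other 3 groups overlapped. The difference from vehicle was 1.41-fold (log2 fold change 0.48 ± 0.09 SE, edgeR adjusted p = 0.000244). LAMB3, the β3 chain that pairs with LAMA3, was at 86.1, 70.5 and 82.7 CPM in differentiation medium, against 122, 104 and 121 CPM in vehicle. It fell there to 0.689 of vehicle (-0.55 ± 0.11, edgeR adjusted p = 0.000527), with no overlap. LAMB3 averaged 109.8 ± 9.80 CPM in KRT20-positive, 105 ± 13.8 CPM in KRT20-negative and 116 ± 10.3 CPM in vehicle cells (SD, n = 3 each), and was called in neither fraction against vehicle (edgeR adjusted p = 0.463 and 0.15; 0.0241 in KRT20-negative cells without their replicate 1).

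LAMB1, the β1 chain that joins LAMC1 in most basement membrane laminins, was at 172, 142 and 195 CPM in KRT20-positive libraries, at 206, 177 and 183 CPM in KRT20-negative libraries, at 227, 186 and 251 CPM in differentiation medium and at 271, 208 and 307 CPM in vehicle. The KRT20-positive and KRT20-negative libraries lay below all 3 vehicle libraries and overlapped each other, and differentiation medium overlapped vehicle. LAMB1 was 0.649-fold of vehicle in KRT20-positive cells (log2 fold change -0.65 ± 0.15 SE, edgeR adjusted p = 0.0046) and 0.721-fold in KRT20-negative cells (-0.52 ± 0.15, edgeR adjusted p = 0.0178). The second call was lost without KRT20-negative replicates 2 or 3 or vehicle replicates 1 or 3 (edgeR adjusted p = 0.0701, 0.0894, 0.052 and 0.058). In differentiation medium LAMB1 was not called against vehicle (-0.25, edgeR adjusted p = 0.272), but was called with the replicate number as a block (edgeR adjusted p = 0.0195) and without vehicle replicate 2 (edgeR adjusted p = 0.0436). The 3′ ends of LAMB1, LAMA5, ITGB4 and SETDB1 lie in genes on the opposite strand that are also in the tables (DLD, ADRM1, GALK1 and CERS2, in GENCODE 29). Whether counting used strand is not given in the sources used here, so reads of these pairs may not be separated.

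**Figure D2:**
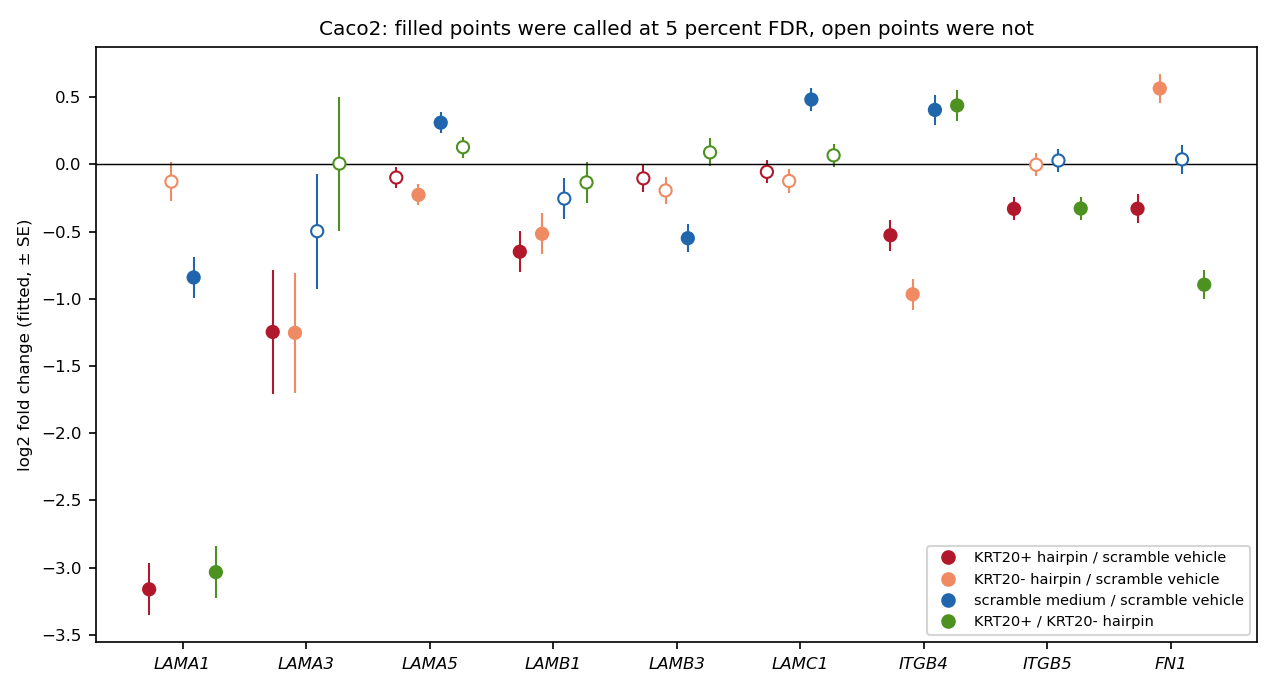
Fitted log2 fold change with SE for the 9 genes in 4 Caco2 comparisons (KRT20-positive and KRT20-negative cells and differentiation medium, each against vehicle, and KRT20-positive against KRT20-negative cells); filled points were called at 5% FDR and open ones were not. LAMA1 lies at -3.16 in KRT20-positive cells, and FN1 lies on opposite sides of 0 in the sorted fractions, at -0.33 and 0.57.

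The integrin subunits behaved differently from each other. ITGB4, the β4 partner of ITGA6 in hemidesmosomes, fell in both shSETDB1 fractions and rose in differentiation medium. It was at 31.3, 32.8 and 31.0 CPM in KRT20-positive libraries, at 20.3, 24.1 and 26.7 CPM in KRT20-negative libraries, at 58.7, 62.1 and 59.3 CPM in differentiation medium and at 39.5, 49.5 and 45.8 CPM in vehicle. These 4 ranges did not overlap, and KRT20-negative cells were lowest. Against vehicle, ITGB4 fell to 0.527-fold in KRT20-negative cells (log2 fold change -0.97 ± 0.12 SE, edgeR adjusted p = 5.38e-07) and to 0.706-fold in KRT20-positive cells (-0.53 ± 0.11, edgeR adjusted p = 0.000762). In differentiation medium it was 1.34-fold higher (0.41 ± 0.11, edgeR adjusted p = 0.00963; 0.085 without vehicle replicate 1). KRT20-positive cells had 0.44 ± 0.12 more than KRT20-negative cells on the log2 scale (edgeR adjusted p = 0.0337). That last call was lost without any of KRT20-positive replicates 1, 2 and 3 or KRT20-negative replicates 1 and 2 (edgeR adjusted p = 0.103, 0.119, 0.075, 0.13 and 0.06). It was also lost with only these 2 groups fitted (edgeR adjusted p = 0.117).

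ITGB5, the β5 partner of αV, was at 132, 134 and 149 CPM in KRT20-positive libraries, at 170.3, 159 and 199 CPM in KRT20-negative libraries, at 174, 171 and 183 CPM in differentiation medium and at 177, 157 and 179 CPM in vehicle. The KRT20-positive libraries were below all others, and the other 3 groups overlapped. ITGB5 fell to 0.81-fold of vehicle in KRT20-positive cells (log2 fold change -0.33 ± 0.09 SE, edgeR adjusted p = 0.00367). Against KRT20-negative cells the difference was also -0.33 ± 0.09 (edgeR adjusted p = 0.0268). This call was lost without KRT20-positive replicates 1 or 2 or KRT20-negative replicate 3 (edgeR adjusted p = 0.137, 0.115 and 0.0812), and with only these 2 groups fitted (edgeR adjusted p = 0.104).

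FN1 was higher in KRT20-negative than in vehicle cells and lower in KRT20-positive cells. It was at 6954, 8706 and 8274 CPM in KRT20-positive libraries, at 13402, 13594 and 18145 CPM in KRT20-negative libraries, at 10736, 9598 and 10259 CPM in differentiation medium and at 9756, 10789.8 and 8982 CPM in vehicle. The ranges of the sorted fractions overlapped neither each other nor vehicle, and differentiation medium overlapped vehicle. FN1 was 0.53-fold in KRT20-positive relative to KRT20-negative cells (log2 fold change -0.89 ± 0.11 SE, edgeR adjusted p = 0.000115). Against vehicle it was 1.53-fold in KRT20-negative cells (0.57 ± 0.11, edgeR adjusted p = 0.000697) and 0.811-fold in KRT20-positive cells (-0.33 ± 0.11, edgeR adjusted p = 0.0244). The last call was lost without KRT20-positive replicate 1 (edgeR adjusted p = 0.0978), without vehicle replicate 2 (edgeR adjusted p = 0.0969) and without the low-count filter (edgeR adjusted p = 0.0665). It was also lost with the replicate number as a block (edgeR adjusted p = 0.0954). Differentiation medium did not differ detectably from vehicle (0.04, edgeR adjusted p = 0.842).

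KRT20-negative replicate 3 stood apart in fibroblast and mesenchymal genes. It was the highest of the 12 Caco2 libraries in 29 of 30 such markers, whose summed level was 1477 CPM there and 297 to 391 CPM in the other 11. COL6A3 was at 286 CPM there and 6.66 to 18.3 CPM in the others, and DCN at 93.6 CPM and 3.49 to 7.99 CPM. By group the summed level was 343 to 391 CPM in KRT20-positive, 352 to 1477 CPM in KRT20-negative, 338 to 371 CPM in differentiation medium and 297 to 327 CPM in vehicle libraries. Without this replicate FN1 was still higher in KRT20-negative than in vehicle cells (log2 fold change 0.41 ± 0.08 SE, edgeR adjusted p = 0.000227) and lower in KRT20-positive than in KRT20-negative cells (-0.75 ± 0.08, edgeR adjusted p = 7.4e-07). Leukocyte markers were highest in that library in 0 of 10 genes, and endothelial markers in 3 of 10. The summed level of 13 epithelial markers was 4901 CPM in KRT20-negative replicate 3 and 5254 to 7047 CPM in the other 11 libraries.

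**Figure D3:**
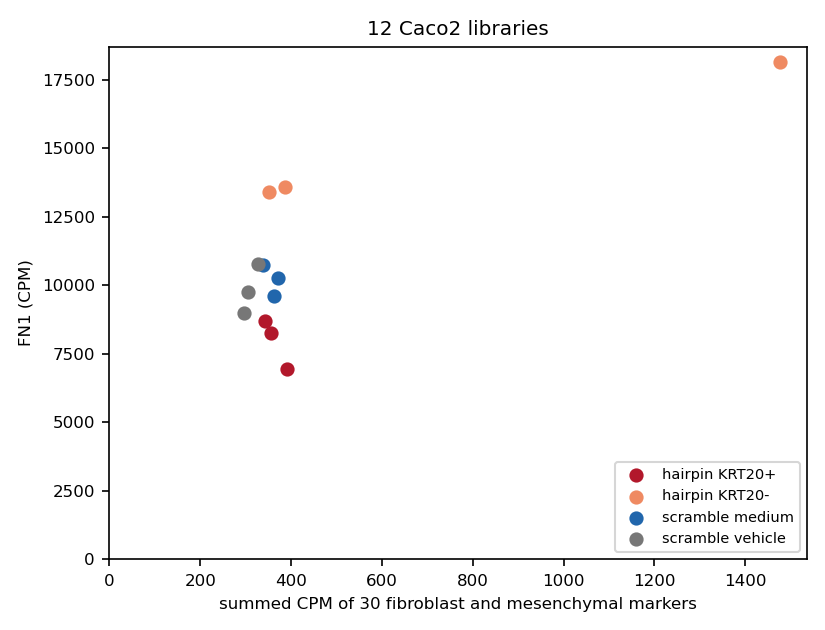
FN1 level (CPM, vertical) against the summed level of 30 fibroblast and mesenchymal markers (CPM, horizontal) in the 12 Caco2 libraries, by group. KRT20-negative replicate 3 lies alone at 1477 CPM of markers, and KRT20-negative replicates 1 and 2 (352 and 386 CPM of markers) still hold more FN1 (13402 and 13594 CPM) than any library of the other groups.

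The counts of called genes stand beside those of all 13968 genes tested in Caco2. Against vehicle, 6 of the 9 genes were lower in KRT20-positive cells, where 18.4% of all genes were called lower and 19.3% higher; 7 of 9 did not overlap, against 51.2% of all genes. In KRT20-negative cells 4 of 9 were lower and 1 higher, where 17.6% of all genes were called lower and 18.6% higher, and 3 of 9 did not overlap against 44.5%. In differentiation medium 3 were higher and 2 lower, where 10.4% and 10.5% of all genes were called, and 5 of 9 did not overlap against 39.2%. KRT20-positive against KRT20-negative cells gave 3 lower and 1 higher, where 1.78% and 2.30% of all genes were called, and 4 of 9 did not overlap against 19.9%. The median log2 fold change of the 9 genes was -0.33 in KRT20-positive cells, -0.19 in KRT20-negative cells and 0.03 in differentiation medium, all against vehicle, with all-gene medians of 0.01, 0.01 and -0.00. These 3 comparisons share the vehicle libraries.

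Against shScramble cells in differentiation medium, KRT20-positive cells had 6 of the 9 genes lower and 1 higher (16.6% and 18.0% of all genes), and 8 of 9 did not overlap (48.6% of all genes). LAMB3 was the one that was higher (log2 fold change 0.45, edgeR adjusted p = 0.00193). LAMA1 was lower by the most (-2.32, edgeR adjusted p = 3.81e-09), followed by ITGB4 (-0.93, edgeR adjusted p = 6.47e-07), LAMC1 (-0.54), LAMA5 (-0.41), FN1 (-0.37) and ITGB5 (-0.36). FN1 was called at an edgeR adjusted p of 0.0147, and not without KRT20-positive replicate 1 (0.0605) or medium replicate 1 (0.0534), or with the replicate block (0.0722). LAMB1 was not called (-0.40, edgeR adjusted p = 0.0629), but was called without KRT20-positive replicate 3 (0.0316) or medium replicate 2 (0.025). The replicate block (0.000278), DESeq2 (0.0139) and a fit of only these 2 groups (0.00962) called LAMB1 as well. KRT20-negative cells had 3 lower and 3 higher (18.4% and 19.6% of all genes), and 6 of 9 did not overlap (45.6%). ITGB4 (-1.37, edgeR adjusted p = 1.56e-09), LAMC1 (-0.61) and LAMA5 (-0.54) were lower in KRT20-negative cells, and LAMA1 (0.71, edgeR adjusted p = 0.000774), FN1 (0.53) and LAMB3 (0.36) were higher. LAMB3 was not called without KRT20-negative replicate 1 (edgeR adjusted p = 0.0853) or medium replicate 2 (0.0659), and LAMB1 (-0.26, edgeR adjusted p = 0.199) was called with the replicate block (0.0122).

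Among other laminin chains, LAMA4, the α4 chain of vascular and stromal laminins, was higher than in vehicle in KRT20-positive cells (log2 fold change 1.69, edgeR adjusted p = 0.00821) and in differentiation medium (2.60, edgeR adjusted p = 0.000222). LAMB2, the β2 chain, was lower in differentiation medium (-0.54, edgeR adjusted p = 0.0353). Of 7 tested integrin alpha subunits, 2 fell in KRT20-positive cells, 3 in KRT20-negative cells, and 2 rose and 2 fell in differentiation medium, all against vehicle, with medians of -0.19, -0.21 and 0.30. Of all genes, 19.3% were called higher and 18.4% lower in KRT20-positive cells. The shares were 18.6% and 17.6% in KRT20-negative cells, and 10.4% and 10.5% in differentiation medium. ITGA2, a collagen and laminin receptor subunit, fell in KRT20-positive (log2 fold change -0.95, edgeR adjusted p = 1.28e-06) and KRT20-negative cells (-1.72, edgeR adjusted p = 1.74e-10). ITGAV, the partner of ITGB5, rose in differentiation medium (0.64, edgeR adjusted p = 3.7e-05). Of 3 other integrin beta subunits, ITGB6 and ITGB8, partners of αV that activate latent TGF-β, rose in all 3 comparisons. ITGB6 rose by 3.18, 2.52 and 2.33, and ITGB8 by 1.91, 0.66 and 1.78, in KRT20-positive cells, KRT20-negative cells and differentiation medium. The list's medians were the ITGB8 values. ITGB6 and LAMA4 rested on few reads in vehicle, at 0.63 to 0.98 CPM and 0.79 to 0.89 CPM. In those libraries 3 counts make 0.37 to 0.46 CPM, so the sizes of these rises are uncertain.

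Among 10 hemidesmosome genes and laminin receptors, 3 rose and 1 fell in KRT20-positive cells, 4 rose and 2 fell in KRT20-negative cells, and 2 rose and 1 fell in differentiation medium, with median log2 fold changes of 0.09, 0.15 and 0.13. For this and the next 2 lists, the shares of all genes called higher and lower were 19.3% and 18.4% in KRT20-positive cells. They were 18.6% and 17.6% in KRT20-negative cells, and 10.4% and 10.5% in differentiation medium. No list was tested as a set. COL17A1, the transmembrane collagen of hemidesmosomes, rose in KRT20-positive cells (log2 fold change 1.54, edgeR adjusted p = 0.00013), and the linker protein gene DST rose there (0.33, edgeR adjusted p = 0.00206) and fell in KRT20-negative cells (-0.26, edgeR adjusted p = 0.0128). Of 10 tested fibronectin matrix and receptor genes, 3 rose and 4 fell, 2 rose and 3 fell, and 2 rose and 2 fell in the same order of groups (medians -0.44, 0.10 and 0.09). FBLN1, a fibronectin-binding fibulin, rose in each (0.84, 0.54 and 0.99), CTGF, a matricellular gene, rose in KRT20-negative cells (1.14, edgeR adjusted p = 3.66e-08), and TGFBI, a secreted integrin ligand, fell in KRT20-positive cells (-1.14, edgeR adjusted p = 1.99e-07). Of 10 tested basement membrane genes, 3 fell in KRT20-positive cells, 3 rose and 1 fell in KRT20-negative cells, and 1 rose and 1 fell in differentiation medium (medians -0.26, 0.13 and -0.21). NTN4, a netrin that binds laminin, fell in all 3 (-1.54, -1.35 and -0.78).

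Focal adhesion genes were mostly lower in the fractions. Of 20 tested, 12 fell and 2 rose in KRT20-positive cells, 11 fell and 2 rose in KRT20-negative cells, and 4 fell and 4 rose in differentiation medium, with median log2 fold changes of -0.56, -0.35 and 0.05. The shares of all genes called lower and higher were 18.4% and 19.3%, 17.6% and 18.6%, and 10.5% and 10.4% in the same order. VCL (vinculin) fell by 1.13 and 1.02 on the log2 scale in KRT20-positive and KRT20-negative cells (edgeR adjusted p = 7.11e-08 and 2.8e-07), and PXN (paxillin) by 0.53 and 0.48. Between KRT20-positive and KRT20-negative cells the calls in the lists, where 2.30% of all genes were called higher and 1.78% lower, were 1 higher each for integrin alpha and integrin beta subunits, 2 lower for basement membrane genes, 1 higher and 1 lower each for hemidesmosome and focal adhesion genes, and 1 higher and 2 lower for fibronectin matrix genes. Of these, ITGA2 (0.78), ITGB8 (1.24) and DST (0.59) were higher in KRT20-positive cells, and the basement membrane genes SMOC2 (-2.29) and COL18A1 (-0.52) were lower (edgeR adjusted p at most 0.00113).

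Across the 12 Caco2 libraries, LAMA5 and LAMC1 had the closest profiles of any pair among the 9 genes (Pearson r = 0.949 of log2 CPM), followed by LAMA5 and ITGB4 (0.878) and LAMA1 and ITGB5 (0.829). Of the 9422 genes that averaged 10 CPM or more, the most alike were IGDCC3 for LAMA1 (r = 0.958), STX2 for LAMA3 (0.895), DAP3 for LAMA5 (0.983), RFC1 for LAMB1 (0.974), ARMC5 for LAMB3 (0.968), ID1 for LAMC1 (0.976), RAC1 for ITGB4 (0.989), ZBTB44 for ITGB5 (0.924) and SLC43A1 for FN1 (0.905). The third most alike for FN1 was COL18A1 (0.89), a basement membrane collagen. These values describe 12 libraries in 4 groups that share line and treatment, and carry no test.

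**Figure D4:**
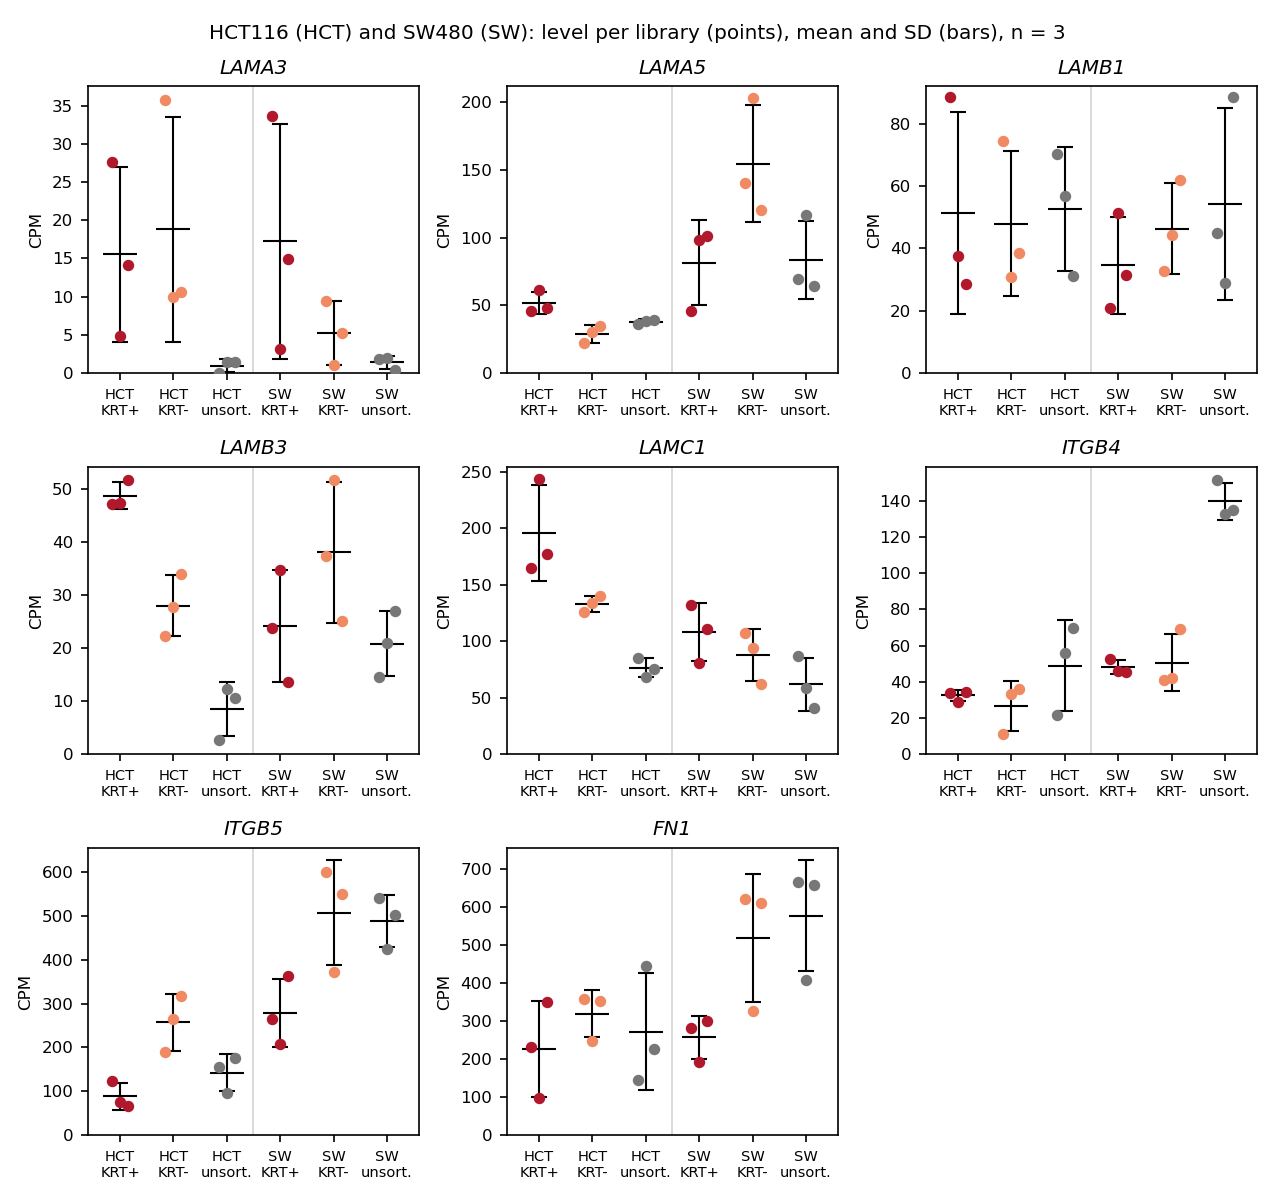
Level (CPM) of 8 of the genes in the 18 HCT116 and SW480 libraries; points are libraries, and bars show mean and SD of 3 libraries for KRT-positive, KRT-negative and unsorted cells of HCT116, then of SW480. LAMB3 and LAMC1 of HCT116 are higher in KRT-positive than in unsorted cells, and ITGB4 of SW480 is highest in unsorted cells (133 to 152 CPM).

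In HCT116 the laminin chains LAMB3 and LAMC1 rose in KRT-positive cells against unsorted cells. Sorting and any difference in hairpin or medium cannot be told apart where a fraction is set against unsorted cells, in HCT116 and in SW480. LAMB3 was at 47.3, 47.4 and 51.8 CPM in KRT-positive libraries, at 22.4, 27.7 and 34.05 CPM in KRT-negative libraries and at 2.72, 12.3 and 10.5 CPM in unsorted libraries, 3 ranges that did not overlap. LAMC1 was at 165, 244 and 178 CPM in KRT-positive, at 126, 134 and 140.0 CPM in KRT-negative and at 85.1, 68.6 and 75.6 CPM in unsorted libraries, again without overlap. LAMB3 rose 5.73-fold (log2 fold change 2.52 ± 0.56 SE, edgeR adjusted p = 0.00844) and LAMC1 2.56-fold (1.35 ± 0.26, edgeR adjusted p = 0.00299) in KRT-positive against unsorted cells. These 2 of the 8 tested genes were the ones called, where 4.26% of all genes were called higher and 5.02% lower, and 4 of 8 did not overlap against 30.3% of all genes. The libraries of HCT116 fall into 2 classes by how their levels vary with the GC content of transcripts, and all KRT-positive libraries are in 1 class. With the class as a term LAMB3 and LAMC1 kept their calls (2.69 and 1.37, edgeR adjusted p = 0.00686 and 0.00153). The summed level of the fibroblast and mesenchymal markers was 453 to 541 CPM in KRT-positive, 376 to 575 CPM in KRT-negative and 697 to 1249 CPM in unsorted libraries. Of the 30 markers, 7 were at 0 in all HCT116 libraries, among them the fibroblast receptor PDGFRA. Others were present, such as COL1A1 at 15.7 to 67.6 CPM. The part of these markers in the differences was not tested.

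LAMA3 varied widely within the sorted HCT116 groups, at 27.7, 4.89 and 14.1 CPM in KRT-positive, at 35.8, 9.99 and 10.7 CPM in KRT-negative and at 0, 1.47 and 1.39 CPM in unsorted libraries. All 6 sorted libraries lay above all unsorted ones, which held 0, 11 and 7 counts, so the fold sizes below are uncertain. The mean was 16.3-fold higher in KRT-positive cells and 19.7-fold higher in KRT-negative cells, and neither was called (edgeR adjusted p = 0.051 and 0.0564; for KRT-positive cells 0.0446 without their replicate 2, 0.02 without the low-count filter, 0.0387 with library totals and 0.00275 by DESeq2). In KRT-negative against unsorted cells 0 of 8 genes were called by edgeR, 4 had an unadjusted p under 0.05 and DESeq2 called 3 (LAMA3, LAMB3 and LAMC1), where edgeR called 5.26% of all genes, and 5 of 8 did not overlap against 24.4%. LAMA1 was at 0 in 8 of 9 HCT116 libraries and at 6.90 CPM (71 counts) in KRT-positive replicate 3, the HCT116 library with the most KRT20.

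ITGB5 separated the HCT116 fractions: it was at 123, 75.9 and 66.6 CPM in KRT-positive, against 189, 265 and 318 CPM in KRT-negative libraries, without overlap. It was 2.91-fold lower in KRT-positive cells (log2 fold change -1.54 ± 0.32 SE, edgeR adjusted p = 0.0409), and was the 1 gene of 8 called, where 0.384% of all genes were called lower and 0.166% higher; 4 of 8 did not overlap, against 18.1%. The call was lost without any of KRT-positive replicates 1, 2 and 3 or KRT-negative replicates 2 and 3 (edgeR adjusted p = 0.0561, 0.196, 0.211, 0.126 and 0.245). With the GC class as a term it was -1.14 (edgeR adjusted p = 0.173), and with library totals -1.35 (edgeR adjusted p = 0.0612), neither called. FN1 was at 231, 96.2 and 349.7 CPM in KRT-positive, at 358, 248 and 352 CPM in KRT-negative and at 145, 444 and 227 CPM in unsorted libraries. Those ranges overlapped, and no FN1 comparison was called in HCT116. LAMA5, LAMB1 and ITGB4 were not called either. Of the partners, ITGA2 rose 3.30-fold in KRT-positive against unsorted cells (edgeR adjusted p = 0.0104), and the hemidesmosome linker PLEC rose 2.83-fold in KRT-negative cells (edgeR adjusted p = 0.00238). Of 20 tested focal adhesion genes, 3 fell in KRT-positive cells, among them ACTN1 (-1.48) and FLNA (-1.42), where 5.02% of all genes were called lower.

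In SW480 ITGB4 was lower in both sorted fractions. It was at 52.6, 46.1 and 45.5 CPM in KRT-positive, at 41.0, 41.9 and 68.9 CPM in KRT-negative and at 152, 133 and 135 CPM in unsorted libraries. The fractions overlapped each other and lay below all unsorted libraries. ITGB4 was 0.344-fold of unsorted in KRT-positive cells (log2 fold change -1.52 ± 0.32 SE, edgeR adjusted p = 0.0178) and 0.362-fold in KRT-negative cells (-1.50 ± 0.32, edgeR adjusted p = 0.0237). The first call was lost without KRT-positive replicate 3 or unsorted replicates 1 or 3 (edgeR adjusted p = 0.052, 0.0847 and 0.0702). The second was lost without KRT-negative replicate 1, whose SETDB1 level goes against its label, or KRT-negative replicate 2 or unsorted replicates 1, 2 and 3 (edgeR adjusted p = 0.133, 0.114, 0.113, 0.0668 and 0.0949).

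FN1 in SW480 was at 281, 194 and 299.9 CPM in KRT-positive, at 621, 326 and 609.8 CPM in KRT-negative and at 667, 408 and 658 CPM in unsorted libraries. The KRT-positive libraries lay below all others, and KRT-negative and unsorted overlapped. FN1 was 2.24-fold lower in KRT-positive than in unsorted cells (log2 fold change -1.14 ± 0.28 SE, edgeR adjusted p = 0.042). That call was lost without any of KRT-positive replicates 1, 2 and 3 or unsorted replicates 1 and 3 (edgeR adjusted p = 0.0817, 0.0907, 0.0602, 0.15 and 0.16). It was also lost with only these 2 groups fitted (edgeR adjusted p = 0.072). The summed level of fibroblast and mesenchymal markers was 1330.2 to 2381 CPM in KRT-positive, 2315 to 4133 CPM in KRT-negative and 1738 to 2801 CPM in unsorted libraries, so that KRT-positive overlapped both. Of the 30 markers, 6 were at 0 in all SW480 libraries, among them PDGFRA. Others were present, such as VIM at 37.6 to 220 CPM. The part of these markers in the FN1 difference was not tested. ITGB5 was at 266, 209 and 363 CPM in KRT-positive, at 601, 373 and 549.7 CPM in KRT-negative and at 541, 425 and 502 CPM in unsorted libraries. Its KRT-positive libraries were likewise below all others, and it was not called against unsorted cells (-0.79, edgeR adjusted p = 0.1). In SW480 replicate 2 of each group forms 1 class by the trend with GC content and replicates 1 and 3 the other. With this class as a term ITGB5 (-0.81, edgeR adjusted p = 0.00848) and FN1 (-1.13, edgeR adjusted p = 0.000304) were both called in KRT-positive against unsorted cells, and likewise against KRT-negative cells (-0.81 and -0.92, edgeR adjusted p = 0.0241 and 0.00608).

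Of the 8 genes tested in SW480, 2 were lower in KRT-positive against unsorted cells, where 1.57% of all genes were called lower and 1.90% higher, and 4 of 8 did not overlap against 22.6%. In KRT-negative against unsorted cells 1 was lower, where 0.762% were called lower and 1.36% higher, and 2 of 8 did not overlap against 24.6%. In KRT-positive against KRT-negative cells edgeR called 0 of 8, 3 had an unadjusted p under 0.05 and DESeq2 called 0, where edgeR called 0.445% of all genes; 3 of 8 did not overlap, against 17.8%. LAMA5 was at 140.2, 203 and 120.2 CPM in KRT-negative and at 69.6, 117 and 64.3 CPM in unsorted libraries, a difference that was not called (0.85, edgeR adjusted p = 0.348). LAMA3, LAMB1, LAMB3 and LAMC1 were not called by edgeR in any SW480 comparison. LAMA3 was at 3.14 to 33.6 CPM in KRT-positive and 0.43 to 1.96 CPM in unsorted libraries, without overlap, and KRT-negative libraries overlapped both. Its mean was 12.3-fold higher in KRT-positive than in unsorted cells (edgeR adjusted p = 0.28), and DESeq2 called this difference (adjusted p = 0.0304). The unsorted libraries held 12, 17 and 4 LAMA3 counts, so the fold size is uncertain. Of the partners, ITGA6, which pairs with ITGB4, was higher in KRT-negative than in unsorted cells (1.25, edgeR adjusted p = 0.00791), and the heparan sulfate proteoglycan AGRN was lower in KRT-positive and KRT-negative cells (-1.16 and -1.13, edgeR adjusted p = 0.0318 and 0.0482).

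**Figure D5:**
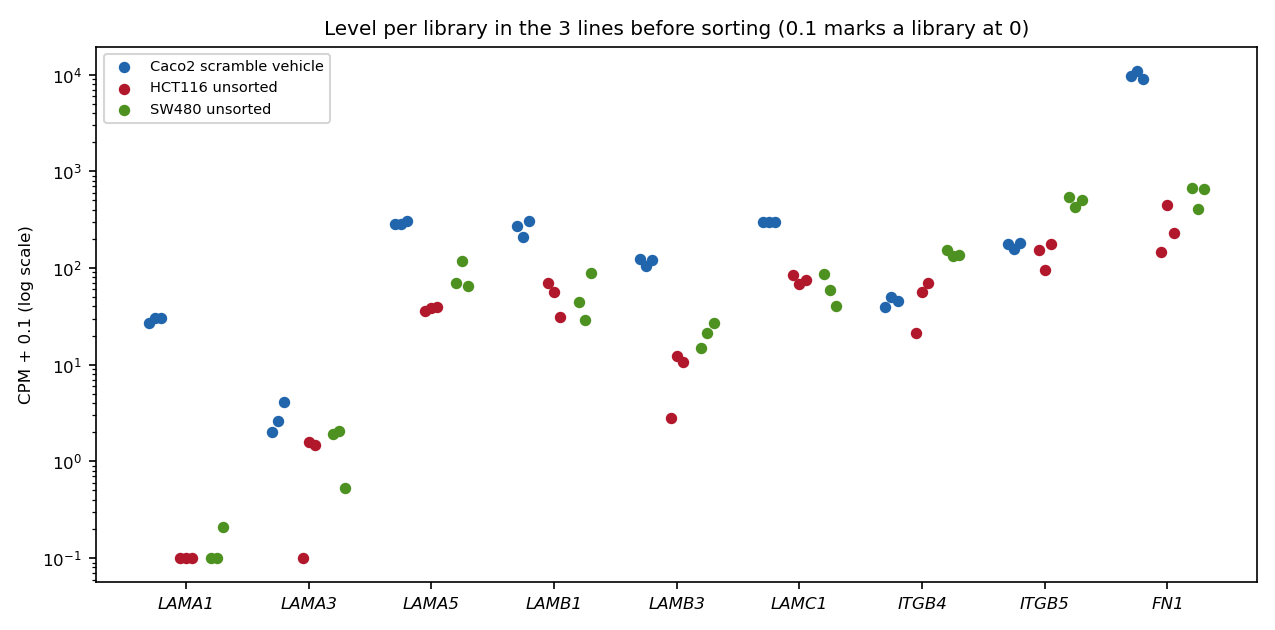
Level of each of the 9 genes (CPM plus 0.1, log axis) in Caco2 shScramble vehicle, HCT116 unsorted and SW480 unsorted libraries; points are libraries, and a point at 0.1 is a library at 0. FN1 averaged 9842 CPM in Caco2, 272 CPM in HCT116 and 578 CPM in SW480.

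Caco2 vehicle cells held more laminin and fibronectin transcript than unsorted cells of the other lines. Cell line and any difference in hairpin or medium cannot be told apart in these comparisons. Against HCT116, 6 of 9 genes were higher in Caco2, where 17.9% of all genes were called higher and 15.2% lower, and 7 of 9 did not overlap against 59.6%. The largest ratios were those of FN1 (36.1-fold, edgeR adjusted p = 4.9e-05), LAMB3 (13.6-fold, edgeR adjusted p = 0.000831) and LAMA1. LAMA1 averaged 29.1 CPM in Caco2 and was at 0 in the unsorted HCT116 libraries, so it was at least 182-fold higher, taking 3 counts over the group as the limit. LAMA1 passed the low-count filter only through its Caco2 counts. It is counted among the 6 genes against each line, but its calls are not read as support. LAMA5 (7.67-fold), LAMB1 (4.98-fold) and LAMC1 (3.89-fold) were higher as well, and LAMA3, ITGB4 and ITGB5 were not called. Against SW480, the same 6 genes were higher (18.3% of all genes higher and 15.7% lower; 8 of 9 did not overlap against 59.1%), with FN1 17.0-fold (edgeR adjusted p = 0.000121), LAMB3 5.55-fold, LAMB1 4.83-fold, LAMC1 4.81-fold and LAMA5 3.48-fold. LAMA1 had 1 count in the unsorted SW480 libraries, for a ratio of 687 with a 95% counting interval of 123 to 27174. ITGB4 (0.322-fold, edgeR adjusted p = 0.00863) and ITGB5 (0.349-fold, edgeR adjusted p = 0.000819) were lower in Caco2 than in SW480.

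Between unsorted HCT116 and SW480 cells 3 of 9 genes were lower in HCT116, where 10.8% of all genes were called lower and 10.6% higher, and 4 of 9 did not overlap against 33.1%. LAMA1 was among the 9, but held 0 counts in HCT116 and 1 in SW480, too few for a test. LAMA5 was 0.454-fold (edgeR adjusted p = 0.00973), ITGB5 0.291-fold (edgeR adjusted p = 0.00074) and ITGB4 0.35-fold (edgeR adjusted p = 0.0205; 0.0527 without SW480 unsorted replicate 1). FN1 was not called (log2 fold change -1.05, edgeR adjusted p = 0.0681; 0.00768 without HCT116 unsorted replicate 2). Ordered over the 10 groups by mean, the 4 Caco2 groups held the highest levels of LAMA1, LAMA5, LAMB1, LAMB3, LAMC1 and FN1. For LAMA1 and LAMC1 the lowest of these Caco2 groups overlapped the next group, HCT116 KRT-positive cells. FN1 of Caco2 KRT20-negative cells and LAMA5 and LAMC1 of differentiation medium did not overlap the next group in order. ITGB4 was highest in SW480 unsorted cells (139.8 ± 10.4 CPM, SD, n = 3), which did not overlap the next group either, and ITGB5 was highest in SW480 KRT-negative (508 ± 119 CPM) and SW480 unsorted cells (489 ± 59.2 CPM, SD, n = 3 each), which overlapped. For LAMA3 each of the 9 neighbouring pairs in the order overlapped.

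Whether the step between KRT-positive and KRT-negative cells differs between lines was tested as an interaction. For Caco2 against HCT116, 1 of 9 genes was called, LAMA1 (edgeR adjusted p = 0.0357), where 0.867% of all genes were called lower and 1.51% higher. LAMA1 passed the low-count filter through its Caco2 counts, and all its HCT116 counts in these groups are the 71 of KRT-positive replicate 3, so the fitted difference measures no step and is not read as one. The call was lost without that library or any of 8 others, namely the 6 Caco2 libraries of the fractions and HCT116 KRT-negative replicates 2 and 3 (edgeR adjusted p = 0.0527 to 1), and DESeq2 gave no adjusted p. LAMA5 (-0.68, edgeR adjusted p = 0.104) was called without HCT116 KRT-negative replicate 3 (0.0426), and ITGB5 (1.23, edgeR adjusted p = 0.0598) without HCT116 KRT-negative replicate 1 (0.019) or KRT-positive replicate 1 (0.0117). For Caco2 against SW480 edgeR called 0 of 9 genes, 1 had an unadjusted p under 0.05 and DESeq2 called 0, where edgeR called 2.93% of all genes. LAMA1 was among these 9, but was at 0 in all SW480 libraries of both fractions. Its step in SW480 could therefore not be tested, and the absence of a call for LAMA1 is not a result. For HCT116 against SW480 edgeR called 0 of 8, 1 had an unadjusted p under 0.05 and DESeq2 called 0, where edgeR called 0.0539% of all genes. The FN1 step of -0.89 in Caco2 was accompanied by steps of -0.50 in HCT116 (edgeR adjusted p = 0.777) and -0.95 in SW480 (edgeR adjusted p = 0.222), and no difference between lines was called for FN1.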

How the data were processed

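The authors deposited 1 table of raw counts per gene symbol for each of 30 QuantSeq libraries (kit per the labels' protocols). Bowtie2, edgeR and the build hg19 were named per the submitters' processing notes; versions, settings and the strand of counting are not given in the sources used here. Of 25737 lines per table, 1561 lines of 286 repeated symbols were summed, leaving 24462 genes. Groups came from the sample titles. Separate edgeR 4.0.16 fits (R 4.3.3) for the 3 lines took in every group of a line (low counts removed by filterByExpr, TMM, robust quasi-likelihood F tests, Benjamini-Hochberg over 13968 genes in Caco2, 13279 in HCT116 and 13252 in SW480, calls at 5% FDR), and between-line and interaction fits held 14035 to 15339 genes. The SE was derived from the log2 fold change and its F statistic. Folds are ratios of mean CPM. LAMA1 did not pass the filter in the HCT116 and SW480 fits.

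The 9 genes and all lists were chosen with earlier results of these data known. The text names the 9 genes in every comparison, up to 3 called genes per list in Caco2 and up to 2 in HCT116 and SW480 with the smallest adjusted p, the genes of most similar profile over 12 Caco2 libraries, and SETDB1, KRT20 and markers as checks; for length not all are printed, and some genes are not reported here. ITGAV and ITGA6 in the text are the partners of ITGB5 and ITGB4. Alternatives were RLE factors, library totals, no filter, DESeq2 1.42.0, a replicate block, only the compared groups, the GC class and each library left out. The procedure was tested on simulated data. Depth per library was 6538087 to 10074838 counts (Caco2), 5349737 to 10221854 counts (HCT116) and 6915326 to 10036179 counts (SW480); intervals and limits cover counting error only. Same-numbered Caco2 libraries deviated together (correlation 0.0483 to 0.338). Every pair passed 0.1 except replicate 1 in KRT20-positive against vehicle and against differentiation medium. In HCT116 same-numbered libraries correlated at -0.103 to 0.276 (median -0.0052, against -0.006 for unlike numbers), so the numbers were not shown to pair the samples. In SW480 they correlated at 0.0343 to 0.326 (median 0.0973), and libraries of unlike number at -0.255 to 0.160 (median -0.114). Whether the numbers pair the samples was not settled in SW480. No label says that they do in any line, so the main fits held group only, also in Caco2. The SE and p-values printed without mention of a block therefore ignore any pairing, and the replicate block was an alternative. Sequences are from RefSeq (GRCh38.p14), overlaps from GENCODE 29 (GRCh38). 18 comparisons were made.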

Additional observations from a re-analysis of the deposited data

Results flagged for a closer look

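The step of LAMA1 between KRT-positive and KRT-negative cells was called as different between Caco2 and HCT116 by the test of the difference itself (edgeR adjusted p = 0.0357). The fitted value of -10.26 on the log2 scale is set by a group at 0 and by 1 HCT116 library with counts, KRT-positive replicate 3, and is neither an estimate nor a bound of a step. Without that library the difference was not called.

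The LAMA5 libraries of KRT-negative and unsorted cells were in opposite order in the other lines, although neither difference was called (edgeR adjusted p = 0.704 in HCT116 and 0.348 in SW480). LAMA5 was 0.77-fold in HCT116, where all 3 KRT-negative libraries lay below all 3 unsorted ones, and 1.85-fold in SW480, where all 3 lay above. This difference between lines was not tested.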

How the results depend on the processing

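No value of the 9 genes reversed its called direction under any alternative. With only the 2 compared groups in the fit, 3 genes were called in Caco2 KRT20-negative against vehicle (5 with all groups), 2 in KRT20-positive against KRT20-negative (4) and 1 in SW480 KRT-positive against unsorted (2). DESeq2 called 3 in HCT116 KRT-negative against unsorted (edgeR 0), 4 in SW480 KRT-positive against unsorted (2), 5 in HCT116 against SW480 unsorted (3) and 2 in the Caco2 minus HCT116 step (1). Without the low-count filter 1 was called in HCT116 KRT-negative against unsorted. LAMA3 was added in HCT116 KRT-positive against unsorted without that filter, with library totals and with DESeq2, and LAMB1 in Caco2 KRT20-positive against differentiation medium with DESeq2 and with only the 2 groups. With library totals 0 were called in HCT116 KRT-positive against KRT-negative and 2 in the Caco2 minus HCT116 step. With the GC class 0 and 2 were called in KRT-positive against KRT-negative cells of HCT116 and SW480. The cause was not tested.

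The replicate block gave 2 calls in SW480 KRT-positive against KRT-negative (0 without it), ITGB5 and FN1 (edgeR adjusted p = 0.0361 and 0.0112), where pairing by number is not settled. It also moved the counts to 5 in Caco2 KRT20-positive against vehicle (FN1 lost, edgeR adjusted p = 0.0954), 6 in differentiation medium against vehicle and 7 in KRT20-negative against differentiation medium (LAMB1 added in both). In KRT20-positive against differentiation medium the block kept the count at 7, with FN1 lost (edgeR adjusted p = 0.0722) and LAMB1 added (edgeR adjusted p = 0.000278).

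With each library left out in turn, the calls ranged over 4 to 6 in Caco2 KRT20-positive, 2 to 4 in KRT20-negative and 4 to 6 in differentiation medium, all against vehicle; 2 to 3 in KRT20-positive against KRT20-negative; and 6 to 8 and 5 to 6 in KRT20-positive and KRT20-negative against differentiation medium. In HCT116 the ranges were 2 to 3 and 0 to 0 in KRT-positive and KRT-negative against unsorted, and 0 to 1 between the fractions. In SW480 they were 0 to 2, 0 to 1 and 0 to 0. Between lines they were 6 to 6 for Caco2 against HCT116, 8 to 8 for Caco2 against SW480 and 2 to 4 for HCT116 against SW480, and 0 to 2, 0 to 0 and 0 to 0 for the steps. Depth limits LAMA3, at 5 to 25 counts per Caco2 library and few in unsorted HCT116 and SW480 libraries, and LAMA1 outside Caco2.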
